A study of Mus musculus with 5 samples.

Results

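Pcp4, also called PEP-19, was examined as 1 gene of the 27998 in the deposited count tables, across the cell classes of 5 mammary gland libraries. It was selected on measured values of these same data, its higher level in luminal cells of mice given estradiol, so the levels that chose it are given as a description and carry no test. The libraries were single-cell RNA-seq (10x Chromium 3′, with unique molecular identifiers, UMIs) of dissociated mammary glands of ovariectomized BALB/cj mice, a surgical model of menopause, at 30 weeks of age. Treatment began 20 weeks after the ovaries were removed and lasted 1 week, and the cells were not sorted. There was 1 library per group, and the sources used here give the mice treated per group but not how many each library held, so no test over animals could be made and no p-value is printed.

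All 5 groups had lost their ovaries. OVX, labelled Vehicle, received DMSO by injection and control food, and the other groups received 17β-estradiol (E2) at 1 ug per animal by daily intraperitoneal injection. OVX_E2 had this alone. OVX_E2_PBDE also ate food with polybrominated diphenyl ethers, flame retardants that persist in the environment (BDE-47 at 7.1, BDE-100 at 0.4 and BDE-153 at 0.9 mg per kg of food). OVX_E2_P4 also had progesterone (P4) at 0.1 mg per animal, and OVX_E2_P4_PBDE had both additions.

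Pcp4 encodes a small protein first described in Purkinje neurons of the cerebellum. It binds calmodulin, the main intracellular calcium sensor, through an IQ motif, speeds the exchange of calcium on it and so tunes calmodulin-dependent kinases and the phosphatase calcineurin. In the mammary gland, hormone-sensing luminal (L-Hor) cells carry the receptors for estrogen, progesterone and prolactin and pass the hormonal signal to their neighbours, whereas alveolar luminal (L-Alv) cells hold the program for milk and basal cells contract.

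The gene (ENSMUSG00000090223) lies on the plus strand at chr16:96467606-96525793 of mm10 (GRCm38), and GENCODE M21 gives it 4 transcripts. The main transcript has 3 exons, 641 spliced bases and a coding sequence of 186 bases for 62 residues. The 250 bases before its start are shown because the gene was selected on its level under a nuclear receptor ligand. They are the RefSeq promoter window (GRCm38.p6, plus strand, chr16:96467356-96467605), in lower case, with capitals marking the letters GGTCA of an estrogen response element arm, here read on the reverse strand as TGACC.

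Pcp4 promoter: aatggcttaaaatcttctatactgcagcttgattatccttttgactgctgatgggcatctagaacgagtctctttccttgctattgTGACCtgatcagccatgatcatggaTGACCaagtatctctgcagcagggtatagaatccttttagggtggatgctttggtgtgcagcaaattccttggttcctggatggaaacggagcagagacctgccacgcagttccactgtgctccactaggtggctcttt

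GGTCA occurred at 2 places, the first base of each match lying 164 and 139 bases before the start. The full palindrome GGTCANNNTGACC was not in the window of 250 bases before to 50 bases after the start, and neither was TATAAA. Both strands were searched, and the short arm lies inside the palindrome. Over all 32851 promoter windows of that length, GGTCA was in 40.5%, the palindrome in 0.0700% and TATAAA in 13.6%. A match is a run of letters and not a bound site.

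Barcodes were grouped by clustering each library with Pcp4 kept out of the clustering, and clusters were named from fixed marker genes. There were 92 L-Hor-like cells in OVX, 478 in OVX_E2, 763 in OVX_E2_P4, 609 in OVX_E2_PBDE and 596 in OVX_E2_P4_PBDE. After every cell was thinned to 3000 UMIs, 96.6% to 100% of them had a UMI of Prlr, the prolactin receptor. For Cited1 this was 76.0% to 85.1% and for Ly6d 84.8% to 96.9%. All 3 genes are among the L-Hor markers that named the clusters, so these shares are no separate check of the name. Clusters that carried both luminal programs were kept as a class of their own (1970 barcodes in all), since such barcodes can hold cells of both kinds together. Their median depth was 14982 to 25558 UMIs against 5535 to 10460 in L-Hor-like cells. OVX had no L-Alv-like and no proliferating luminal cluster at its clustering resolution of 0.3. At resolution 1.0 it had an L-Alv-like cluster of 33 barcodes. Its class with both luminal programs then held 162 barcodes in place of 194. A marker gate on each barcode called 67 barcodes of OVX L-Alv-like. The OVX class with both luminal programs may thus include L-Alv-like cells. Libraries held 2229 to 3526 barcodes after filtering and 19982067 to 42012988 UMIs before it, and any pair of libraries shared 3 to 15 barcode sequences.

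With estradiol the Pcp4 level was highest in hormone-sensing luminal cells, though in OVX_E2_PBDE not beyond that of proliferating luminal cells (ratio 1.02, 0.854 to 1.23), and without it few L-Hor-like cells had any. Levels are UMIs of Pcp4 per 1000000 UMIs (CPM) summed over the cells of a class, with exact Poisson 95% intervals that cover counting error only. In L-Hor-like cells Pcp4 was at 9.06 CPM in OVX (3.64 to 18.7, from 7 UMIs) and 529 in OVX_E2 (509 to 549, from 2660 UMIs). It was at 269 in OVX_E2_P4 (257 to 281), 114 in OVX_E2_PBDE (106 to 122) and 386 in OVX_E2_P4_PBDE (366 to 407). All 4 libraries with estradiol were above OVX, and OVX_E2_PBDE was the lowest of the 4.

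Barcodes with both luminal programs, which in OVX may include L-Alv-like cells, were also low without estradiol and higher with it. Their Pcp4 level was 12.03 CPM in OVX, 339 in OVX_E2, 73.6 in OVX_E2_P4, 63.1 in OVX_E2_PBDE and 278 in OVX_E2_P4_PBDE. They held 47.9% of all Pcp4 UMIs of OVX_E2 and 61.1% of those of OVX_E2_P4_PBDE, against 36.7% and 34.2% in L-Hor-like cells. Proliferating luminal cells were at 251 CPM in OVX_E2, 68.5 in OVX_E2_P4, 111 in OVX_E2_PBDE and 164 in OVX_E2_P4_PBDE. L-Alv-like cells, the other luminal lineage, were at 14.1, 8.87, 2.40 and 9.29 CPM in the same order of libraries. Within a library L-Hor-like cells were 30.3-fold (23.4 to 39.8, OVX_E2_P4) to 47.4-fold (22.9 to 118, OVX_E2_PBDE) higher than L-Alv-like cells.

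Basal-like cells had Pcp4 without estradiol at a higher level than L-Hor-like cells. Their level was 39.4 CPM in OVX (22.5 to 64.1, from 16 UMIs in 7 of 60 cells), 65.3 in OVX_E2, 25.3 in OVX_E2_P4, 31.3 in OVX_E2_PBDE and 37.4 in OVX_E2_P4_PBDE. In OVX the L-Hor-like level was 0.230 times that of basal-like cells (0.0799 to 0.590), and in OVX_E2 it was 8.10 times as high (6.30 to 10.6). By share of cells the order in OVX depended on depth. With cells thinned to 3000 UMIs, 11.7% of basal-like and 4.35% of L-Hor-like cells had a Pcp4 UMI. With the 38 and 79 cells deep enough thinned to 5000 UMIs, the shares were 2.63% and 5.06%. The ratio of OVX_E2 to OVX in basal-like cells was 1.66 (0.944 to 3.07), an interval that includes 1. A single cell gave 39 of the 62 basal-like Pcp4 UMIs of OVX_E2, and another gave 24 of the 43 of OVX_E2_PBDE. Without the richest cell of each library the basal-like levels were 27.4 CPM in OVX, 24.9 in OVX_E2, 18.9 in OVX_E2_P4, 14.3 in OVX_E2_PBDE and 27.3 in OVX_E2_P4_PBDE, so that OVX was no longer below OVX_E2.

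Stromal, immune and endothelial cells were near the bottom in every library. Fibroblast-like cells were at 0.0728 CPM in OVX (0.00184 to 0.405, 1 UMI in 2566 cells) and between 3.10 and 9.26 CPM in the 4 libraries with estradiol. Immune-like cells had no UMI in OVX, which allows up to 3.14 CPM at the limit of 3 counts used here for a count of 0, and were between 3.57 and 9.62 CPM with estradiol. Endothelial-like cells also had none in OVX, which allows up to 11.8 CPM, and were between 1.59 and 11.8 CPM otherwise. In OVX_E2 the 47 Pcp4 UMIs of fibroblast-like cells lay in 47 cells, 1 each, while in OVX_E2_PBDE a pair of fibroblast-like cells held 13 and 9 of 44. A single fibroblast-like cell of OVX_E2_P4 held 15 of 52, and without it the level there was 6.61 CPM in place of 9.26.

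RNA free in the suspension can put UMIs of abundant transcripts into droplets of other cells. The fibroblast-like level would gauge it only if these cells did not make the transcript, which was not tested. For Pcp4 this level was 0.804% of the L-Hor-like level in OVX, 1.33% in OVX_E2, 3.45% in OVX_E2_P4, 2.72% in OVX_E2_PBDE and 2.07% in OVX_E2_P4_PBDE. For Ly6d, a surface marker of L-Hor cells, the same percent was 0.579%, 1.46%, 3.71%, 1.65% and 2.46%. Pcp4 in fibroblast-like cells was present in a proportion near that of Ly6d, least so in OVX_E2_PBDE, and in OVX its value rests on 1 UMI. In OVX_E2_PBDE, 27 of the 44 UMIs lay in 1 fibroblast-like cluster, at 14.1 CPM (9.32 to 20.6). A pair of cells held 13 and 9 of them. The other fibroblast-like clusters there were at 1.14 to 1.66 CPM, and the source of this difference was not tested. In OVX_E2_P4 a single cell gave 15 of its 52 fibroblast-like UMIs. Other luminal genes gave other percents, from 1.38% (Cited1) to 2.87% (Krt18) in OVX_E2_PBDE. In OVX_E2_P4_PBDE they ran from 2.14% (Areg) to 5.82% (Krt18). In basal-like cells the percent for Pcp4 was 435% in OVX against 0.247% for Ly6d, and 9.42% against 4.46% in OVX_E2_P4. It was 9.69% against 10.7% in OVX_E2_P4_PBDE. In OVX_E2 it was 12.4% against 4.29% and in OVX_E2_PBDE 27.5% against 12.1%, and in both of these libraries most basal-like Pcp4 UMIs came from 1 cell. The basal-like comparison also depended on the gene chosen. In OVX_E2_PBDE the percent was 5.12% for Cited1, 25.1% for Fxyd2 and 34.6% for Krt18.

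Ordered by the median over the 4 libraries with estradiol, the classes ran from L-Hor-like (327 CPM) through both luminal programs (176), proliferating luminal (138) and basal-like (34.4) to L-Alv-like (9.08), endothelial-like (8.12), fibroblast-like (7.53) and immune-like (4.12). The ranges of the last 4 overlapped, and so did those of the first 3. The basal-like range, 25.3 to 65.3 CPM, lay above those of the last 4, below the proliferating luminal range from 68.5 CPM, and overlapped the range of both luminal programs from 63.1 CPM.

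**Figure D1:**
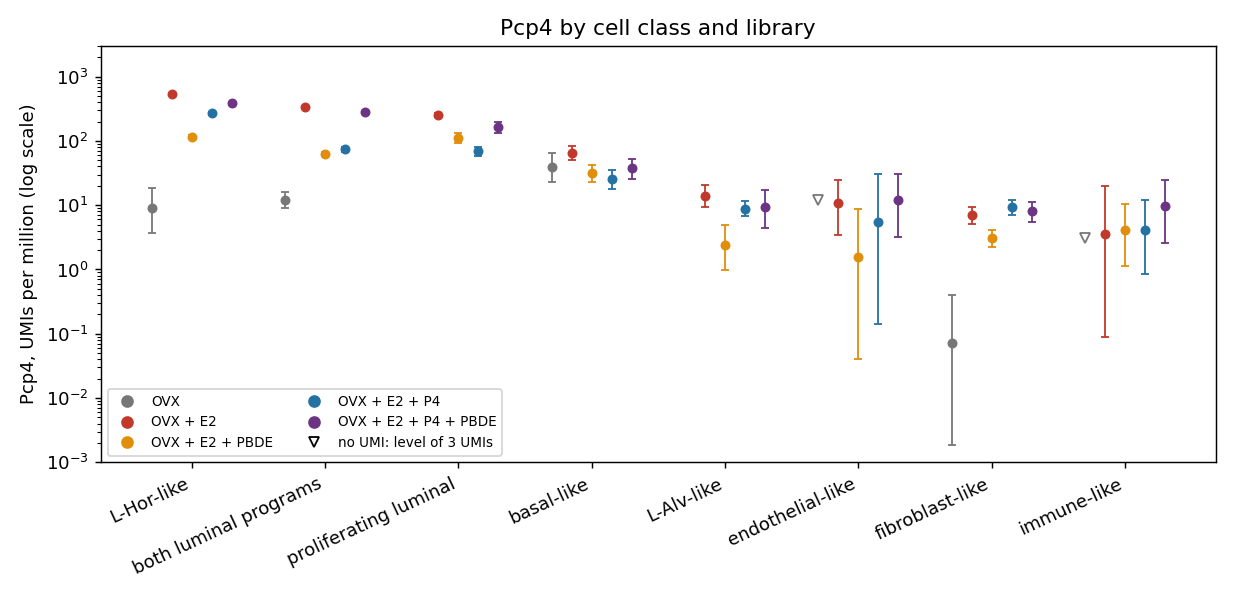
Pcp4 level (CPM, log scale) in each cell class (x axis) and library (colours), with exact Poisson 95% intervals, where open triangles mark classes with no UMI at the level of 3 UMIs. With estradiol the L-Hor-like points sit between 114 and 529 CPM and the fibroblast-like points between 3.10 and 9.26, while OVX has its highest point, 39.4, in basal-like cells.

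The question behind the pairs of libraries is how estradiol, then progesterone and PBDEs on top of it, changed the gland after ovariectomy. The 5 comparisons share libraries, OVX_E2 entering 3 of them, so they are not independent of each other. Ratios have exact conditional binomial 95% intervals for counting error. In L-Hor-like cells Pcp4 was 58.4-fold higher in OVX_E2 than in OVX (28.3 to 145). It ranked 3 from the top among 7411 genes whose UMIs in the pair of libraries came to 50 or more, of which 2.44% were 2-fold or more higher. The gene was chosen on this contrast, so nothing is read from that rank. Scaling by trimmed mean of M-values (TMM) factors in place of total UMIs moved the median log2 ratio of all genes from -0.23 to 0.10 and the genes past 2-fold from 181 higher and 476 lower to 387 higher and 157 lower, and Pcp4 then stood at 73.7-fold.

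Pcp4 was lower where progesterone or PBDEs were added to estradiol, and higher where both were added than where either was. Its level in OVX_E2_P4 was 0.508 times that in OVX_E2 (0.479 to 0.538), short of 2-fold. It ranked 66 from the bottom of 9305 genes, of which 0.634% were 2-fold or more lower. In OVX_E2_PBDE it was 0.215 times that in OVX_E2 (0.199 to 0.233), 3 from the bottom of 9138 genes, of which 1.09% were 2-fold or more lower. The gene was chosen for a high level with estradiol, and both ratios are taken to OVX_E2, which favours a lower value. Nothing is therefore read from either rank. In OVX_E2_P4_PBDE the Pcp4 level was 1.44 times that in OVX_E2_P4 (1.34 to 1.54), within 2-fold. That put it 339 from the top of 8919 genes, of which 0.594% were 2-fold or more higher. The level in OVX_E2_P4_PBDE was 3.40 times that in OVX_E2_PBDE (3.11 to 3.71). That put Pcp4 13 from the top of 8669 genes, of which 0.877% were 2-fold or more higher. The libraries of these pairs were also among those the gene was chosen on, and its UMIs lay in few cells. Nothing is read from these ranks either. Whether PBDEs acted differently with and without progesterone was not tested, since each group is 1 library.

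The same ratios could be formed in classes that the comparison above leaves out. Barcodes with both luminal programs gave 28.2 for OVX_E2 over OVX (21.3 to 38.0), 0.217 for OVX_E2_P4 over OVX_E2, 0.186 for OVX_E2_PBDE over OVX_E2, 3.78 for OVX_E2_P4_PBDE over OVX_E2_P4 and 4.40 for OVX_E2_P4_PBDE over OVX_E2_PBDE. Each pointed the same way as in L-Hor-like cells, and those of OVX_E2 to OVX, OVX_E2_P4 to OVX_E2 and OVX_E2_P4_PBDE to OVX_E2_P4 differed from the L-Hor-like value by more than 1.5 times. The paper considered a cluster of this kind in OVX_E2 to be doublets of L-Hor and L-Alv cells. Such barcodes can hold L-Hor cells of the same libraries, so the shared direction is not independent and nothing is read from it. The OVX barcodes of this class may include L-Alv-like cells, and their part in the ratio of 28.2 was not tested. In basal-like cells OVX_E2_P4 was 0.387 times OVX_E2 (0.251 to 0.589) and OVX_E2_PBDE 0.479 times (0.317 to 0.718), where 1 cell held 39 of the 62 UMIs of OVX_E2. There OVX_E2_P4_PBDE was 1.48 times OVX_E2_P4 (0.904 to 2.42) and 1.20 times OVX_E2_PBDE (0.740 to 1.92), and both of these intervals include 1. Fibroblast-like cells gave 97.0 for OVX_E2 over OVX (16.6 to 3910, from 1 UMI in OVX), 1.31 for OVX_E2_P4 over OVX_E2 (0.868 to 1.99), 0.439 for OVX_E2_PBDE over OVX_E2 (0.284 to 0.677), 0.863 for OVX_E2_P4_PBDE over OVX_E2_P4 (0.538 to 1.37) and 2.58 for OVX_E2_P4_PBDE over OVX_E2_PBDE (1.58 to 4.16).

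Counting intervals understate the error here, because the UMIs of Pcp4 came in clumps from few cells. The 10 cells with the most Pcp4 held 49.1% of its L-Hor-like UMIs in OVX_E2, 50.1% in OVX_E2_P4, 73.1% in OVX_E2_PBDE and 36.0% in OVX_E2_P4_PBDE. Without those cells the levels were 276, 136, 31.0 and 252 CPM in the same order. The ratio of OVX_E2_P4 to OVX_E2 was then 0.493, that of OVX_E2_PBDE to OVX_E2 0.113, that of OVX_E2_P4_PBDE to OVX_E2_P4 1.85 and that of OVX_E2_P4_PBDE to OVX_E2_PBDE 8.12. These 4 ratios kept their direction, and those with OVX_E2_PBDE moved by more than 1.5 times. In OVX the 7 UMIs lay in 6 cells, so no ratio to OVX could be formed without 10 cells.

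Most L-Hor-like cells had no Pcp4 UMI at all. As counted, 93.5% of them had none in OVX, 69.7% in OVX_E2, 71.3% in OVX_E2_P4, 88.7% in OVX_E2_PBDE and 72.1% in OVX_E2_P4_PBDE. The richest cell had 2, 326, 245, 137 and 105 UMIs in the same order. At most, Pcp4 made up 2.02% of all UMIs of a cell in OVX_E2, 1.88% in OVX_E2_P4, 2.30% in OVX_E2_PBDE and 1.42% in OVX_E2_P4_PBDE.

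**Figure D2:**
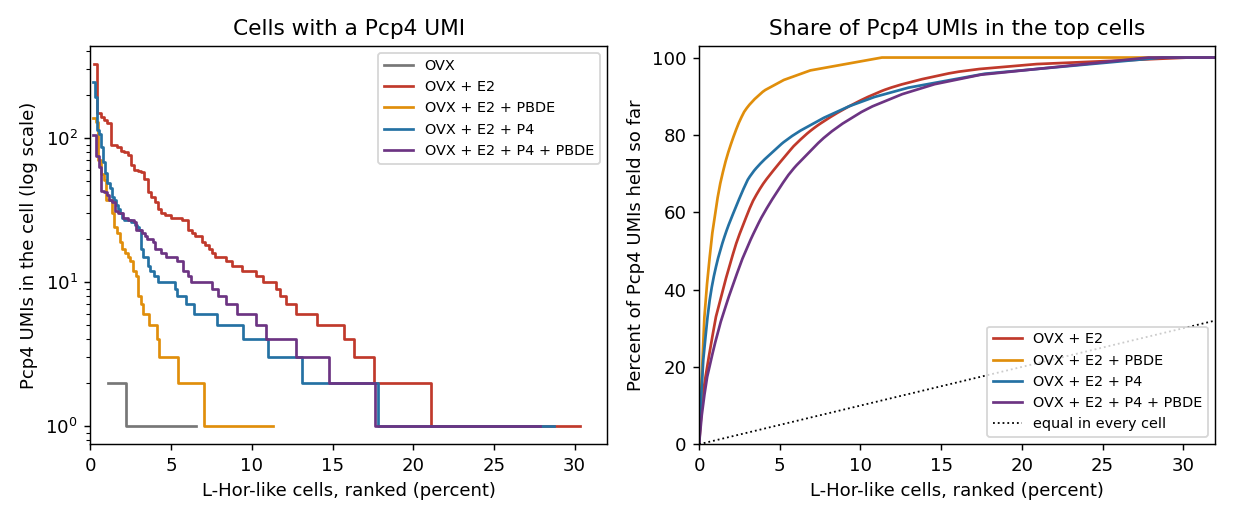
Left, Pcp4 UMIs (log scale) in each L-Hor-like cell that had any, ranked, with the x axis in percent of L-Hor-like cells; right, the percent of all L-Hor-like Pcp4 UMIs held by the top cells in the 4 libraries with estradiol, against a dotted line for equal content. The lines of OVX_E2, OVX_E2_P4 and OVX_E2_P4_PBDE end at 27.9% to 30.3% of cells and that of OVX_E2_PBDE at 11.3%, and the 10 top cells alone hold 36.0% to 73.1% of the UMIs.

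Thinning each cell to 3000 UMIs removed the differences in depth. The share of L-Hor-like cells with a Pcp4 UMI was then 4.35% in OVX (1.20 to 10.8, exact Clopper-Pearson 95% interval, 4 of 92 cells) and 20.3% in OVX_E2 (16.8 to 24.2). It was 17.2% in OVX_E2_P4 (14.6 to 20.0), 7.06% in OVX_E2_PBDE (5.16 to 9.39) and 21.3% in OVX_E2_P4_PBDE (18.1 to 24.8). Among the libraries with estradiol only the interval of OVX_E2_PBDE lay apart from the other 3. These intervals cover the sampling of cells within a library and not differences between mice, so they cannot tell treatments apart. Unthinned shares were 6.52%, 30.3%, 28.7%, 11.3% and 27.9%. In fibroblast-like cells the thinned share was 0 of 2566 in OVX, which allows up to 0.117%, then 2.35% in OVX_E2, 2.00% in OVX_E2_P4, 0.782% in OVX_E2_PBDE and 2.26% in OVX_E2_P4_PBDE. Their median depth was 4252 to 7032 UMIs against 5535 to 10460 in L-Hor-like cells before thinning. L-Alv-like cells had a UMI in 4.79%, 2.04%, 0.488% and 3.25% of cells in the libraries with estradiol, with intervals that overlapped those of fibroblast-like cells. By level, the L-Alv-like value of OVX_E2, 14.1 CPM (9.48 to 20.3), lay above the fibroblast-like 7.06 (5.18 to 9.38), and in the other 3 libraries these intervals overlapped. Before thinning, 7 of 146 L-Alv-like cells of OVX_E2 had 2 or more UMIs and 0 of 937 fibroblast-like cells did. Their depths were unlike, with medians of 11646 and 6643 UMIs.

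If Pcp4 were spread evenly over the L-Hor-like cells of OVX_E2, a mean of 1.54 UMIs per cell thinned to 3000 would leave 21.5% of them without a UMI by Poisson counting, and 79.7% had none. The Fano factor, the variance over the mean, which is 1 for even counting, was 1.36 in OVX, 22.2 in OVX_E2, 20.5 in OVX_E2_P4, 31.9 in OVX_E2_PBDE and 13.9 in OVX_E2_P4_PBDE. Among genes with a mean of at least 0.1 UMIs per thinned cell, Pcp4 ranked 3 of 3094, 4 of 2945, 1 of 2831 and 6 of 2726 by this measure in the libraries with estradiol. Areg, an EGF-family growth factor made by these cells, had Fano factors of 7.01 to 10.0 in the same 4 libraries at means of 4.18 to 6.71 UMIs. Prlr was at 1.74 to 1.98 and Krt18, a luminal keratin, at 2.29 to 3.64. Pcp4 was more uneven than these genes of higher mean in each of the 4 libraries.

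Cells with 5 or more Pcp4 UMIs of 3000 are called Pcp4-high here, a limit set after the counts had been seen. They numbered 41 of 478 in OVX_E2 (8.58%, 6.23 to 11.5), 25 of 763 in OVX_E2_P4 (3.28%, 2.13 to 4.80), 8 of 609 in OVX_E2_PBDE (1.31%, 0.569 to 2.57) and 45 of 596 in OVX_E2_P4_PBDE (7.55%, 5.56 to 9.97). None of the 92 cells of OVX reached it, which allows a share of up to 3.26% by the limit of 3 counts and 3.93% by the Clopper-Pearson interval. The limit cut a continuous range. In OVX_E2, 7 cells had 3 or 4 UMIs and 12 had 5 or 6, in OVX_E2_P4 18 and 8, in OVX_E2_PBDE 10 and 0, and in OVX_E2_P4_PBDE 16 and 11.

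Pcp4-high cells held most of the Pcp4 in each library with estradiol. Pcp4-high cells were at 5433 CPM in OVX_E2, 4750 in OVX_E2_P4, 7126 in OVX_E2_PBDE and 3919 in OVX_E2_P4_PBDE, values that the limit itself raises, and they held 88.2%, 70.1%, 76.5% and 79.9% of the thinned Pcp4 UMIs. The remaining L-Hor-like cells, whose level the same limit caps, were at 93.7 CPM in OVX_E2, 93.0 in OVX_E2_P4, 39.3 in OVX_E2_PBDE and 100.4 in OVX_E2_P4_PBDE, and in OVX the whole class was at 9.06. The intervals of the share of Pcp4-high cells overlapped between OVX_E2 and OVX_E2_P4_PBDE, and that of OVX_E2_P4 lay below both. They too cover only the sampling of cells within a library and cannot tell treatments apart.

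**Figure D3:**
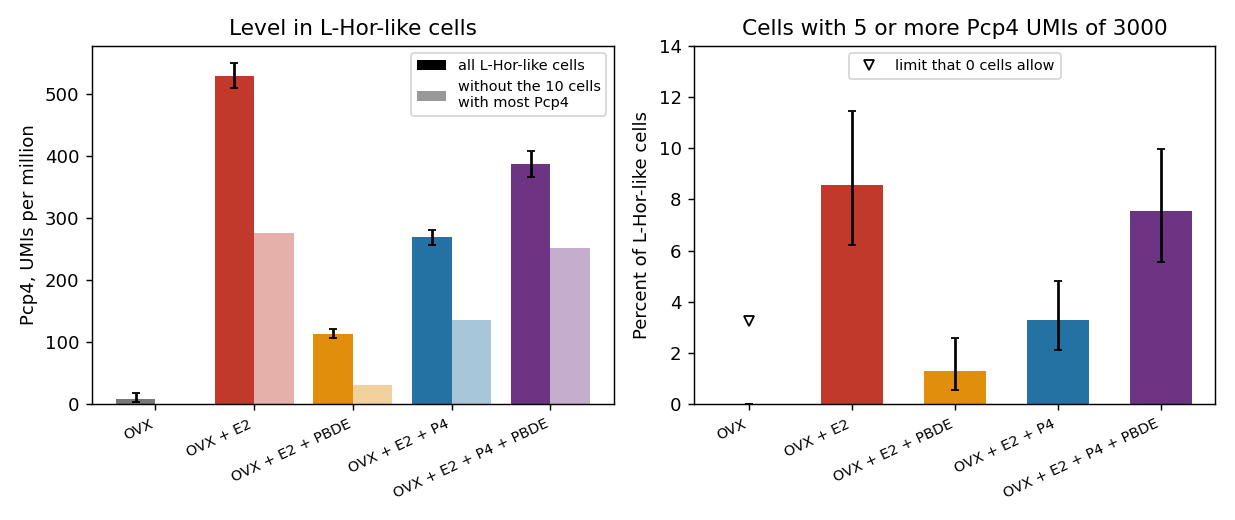
Left, Pcp4 level (CPM) in L-Hor-like cells of each library, over all cells (solid bars, exact Poisson 95% intervals) and without the 10 cells with most Pcp4 (pale bars); right, percent of L-Hor-like cells with 5 or more Pcp4 UMIs of 3000, with Clopper-Pearson 95% intervals and, for OVX, the limit that 0 of 92 cells allows. Leaving out 10 cells takes OVX_E2 from 529 to 276 CPM and OVX_E2_PBDE from 114 to 31.0, and the share of Pcp4-high cells runs from 1.31% to 8.58% with estradiol.

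The clustering left Pcp4 out, and a run with it kept in was not made. At resolution 1.0 Pcp4-high cells did not gather in a single cluster. They lay in both of the largest clusters of L-Hor-like cells, and in OVX_E2_P4_PBDE some of its 45 lay outside this pair. L-Hor-like cells of that library fell into 5 clusters at this resolution. The pair of largest held 583 of the 596 cells, at 356 CPM of Pcp4 in place of 386. The smaller cluster of the pair had Pcp4 itself among its leading genes in OVX_E2_P4 (375 cells). In OVX_E2_P4_PBDE (157 cells) it had Fxyd2, a gene taken up below. At the finer resolution of 1.0, the pair of largest clusters of L-Hor-like cells held 8.64% and 8.62% Pcp4-high cells in OVX_E2, 1.80% and 4.80% in OVX_E2_P4, 1.39% and 1.21% in OVX_E2_PBDE and 5.87% and 10.2% in OVX_E2_P4_PBDE. Their median depth was 9246 UMIs against 9408 in cells without Pcp4 in OVX_E2, 10281 against 8658 in OVX_E2_P4, 8547 against 10367 in OVX_E2_PBDE and 5365 against 5532 in OVX_E2_P4_PBDE, so they were neither deeper nor shallower throughout. Among the 20% of barcodes with the highest Scrublet (doublet) scores were 2 of them in OVX_E2, 4 in OVX_E2_P4 and 0 in both libraries with PBDEs. The summed L-Hor markers averaged 16.8 UMIs of 3000 in Pcp4-high cells and 19.02 in cells without Pcp4 in OVX_E2, 19.9 and 18.98 in OVX_E2_P4, 22.5 and 17.5 in OVX_E2_PBDE and 18.8 and 17.4 in OVX_E2_P4_PBDE. L-Alv markers were at 0 to 0.520 UMIs in Pcp4-high cells and 0.201 to 0.700 in cells without Pcp4.

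Over single cells Pcp4 went with Fxyd2, which encodes the gamma subunit that regulates the sodium pump. Over L-Hor-like cells thinned to 3000 UMIs, Pearson's r of log counts with Pcp4 was highest for Fxyd2 of the 4057 genes compared, with a mean of 0.305 over the 4 libraries with estradiol. It was 0.463 in OVX_E2, 0.132 in OVX_E2_P4, 0.288 in OVX_E2_PBDE and 0.337 in OVX_E2_P4_PBDE, over 478, 763, 609 and 596 cells, and 0.292 in the 92 cells of OVX, where Pcp4 had 7 UMIs. In OVX_E2_P4 alone 7 genes ranked above it. Cells of a library share that library, so these values are a description. Fxyd2 was the only gene with a mean r above 0.2.

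The other genes named by the same ranking were far weaker. Tmsb4x (thymosin beta 4, which binds actin monomers) had a mean r of 0.174, Crip1 (a small LIM-domain protein) 0.171, Fam3c (a secreted cytokine-like protein) 0.121 and Dcn (the matrix proteoglycan decorin, a fibroblast transcript) 0.119. The lowest were Gm10260 at -0.174 and the ribosomal protein genes Rpl34 at -0.164 and Rps27 at -0.159. The counts of Pcp4 were sparse, so correlations of that size are a description and not findings. Other random draws of the thinning kept Fxyd2 first in 4 of 4, with a mean r of 0.312 to 0.340, kept Tmsb4x and Crip1 in the next places, and changed the genes after them.

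Splitting the cells by Fxyd2 gave the same relation as levels. In OVX_E2, 65 L-Hor-like cells with 5 or more Fxyd2 UMIs of 3000 had Pcp4 at 2594 CPM and the 307 cells without Fxyd2 had it at 97.2, a ratio of 26.7 (23.7 to 30.2). The ratio was 3.24 in OVX_E2_P4 (2.85 to 3.68), 38.1 in OVX_E2_PBDE (31.3 to 46.5) and 6.87 in OVX_E2_P4_PBDE (6.01 to 7.87). In OVX it was 8.56 with an interval of 0.715 to 74.8. Cells with Fxyd2 were richer in Pcp4 in all 4 libraries with estradiol, and the size of the ratio varied widely between them. These intervals cover counting error only and are too narrow, because few cells held most of the Pcp4. Of the cells with 5 or more Fxyd2 UMIs, 23 in OVX_E2 and 6 in OVX_E2_P4 were Pcp4-high. In OVX_E2_PBDE 5 were, and in OVX_E2_P4_PBDE 22.

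**Figure D4:**
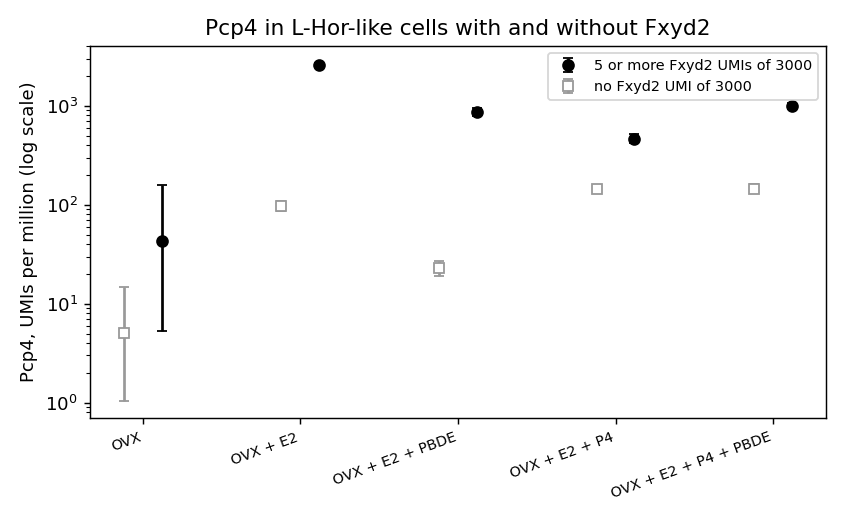
Pcp4 level (CPM, log scale) in L-Hor-like cells with 5 or more Fxyd2 UMIs of 3000 (filled circles) and with none (open squares) in each library. The exact Poisson 95% intervals cover counting error only and leave out the clumping of Pcp4 in few cells. The circles lie above the squares in each library, closest with estradiol in OVX_E2_P4 (466 against 144 CPM) and farthest apart in OVX_E2_PBDE (867 against 22.8), and in OVX (43.6 against 5.09) the intervals overlap.

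The overlap was partial in both directions. Of the Pcp4-high cells, 35 of 41 in OVX_E2, 14 of 25 in OVX_E2_P4, 7 of 8 in OVX_E2_PBDE and 34 of 45 in OVX_E2_P4_PBDE had a Fxyd2 UMI after thinning. Of cells without Pcp4, 20.4% to 31.4% had a Fxyd2 UMI. Fxyd2 was already at 311 CPM in L-Hor-like cells of OVX, against 586 in OVX_E2, so it was present without estradiol, where Pcp4 was at 9.06.

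Pcp4-high cells were then set against cells without a Pcp4 UMI in each library with estradiol, over the 4403 genes with at least 20 UMIs expected in Pcp4-high cells. In all 4 libraries 2 genes were 2-fold or more higher, a share of 0.0454%, and 5 were 2-fold or more lower, a share of 0.114%, and the genes named in this contrast were chosen after their values were seen. Fxyd2 was 8.72-fold higher in OVX_E2 (2581 against 296 CPM), 4.52-fold in OVX_E2_P4, 7.84-fold in OVX_E2_PBDE and 4.58-fold in OVX_E2_P4_PBDE. Dmbt1, a secreted scavenger-receptor glycoprotein of epithelia, was 3.43-fold, 2.05-fold, 6.49-fold and 3.08-fold higher in the same order. It had 192 UMIs in all Pcp4-high cells together. The value of OVX_E2_PBDE rests on 13 of these in 8 cells (3.39 to 11.4), and the interval of OVX_E2_P4, 1.43 to 2.86, reaches below 2-fold. The genes on the lower side were Nrxn3 (a neurexin, 0.157 to 0.437 times the level of cells without Pcp4), Kdm5a (a histone demethylase, 0.425 to 0.483 times), Padi4, Crispld2 and Tesc. The last 3 rest on 6, 12 and 3 UMIs in all Pcp4-high cells together and Kdm5a on 14. Nrxn3 had 32.

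Among L-Hor genes, the mean log2 ratio over the 4 libraries was 0.18 for Prlr, 0.28 for Cited1, a transcriptional co-regulator, -0.10 for Ly6d and 0.01 for Krt18. Upk3a, a uroplakin gene among the leading genes of the L-Hor-like cluster of OVX, was far lower in Pcp4-high cells of OVX_E2 (0.0741 times, 0.0394 to 0.127) and OVX_E2_PBDE (0.0342 times, 1 UMI in 8 cells) and less so in OVX_E2_P4 (0.781 times, 0.638 to 0.947) and OVX_E2_P4_PBDE (0.876 times, 0.673 to 1.12). Areg was lower in Pcp4-high cells of OVX_E2, OVX_E2_PBDE and OVX_E2_P4_PBDE (0.576, 0.502 and 0.477 times) and higher in those of OVX_E2_P4 (1.22 times). Ccnd1, which encodes cyclin D1, was 1.55-fold to 2.54-fold higher and Crip1 1.56-fold to 3.32-fold higher in the 4 libraries. Summed fibroblast markers averaged 5.24 UMIs of 3000 in Pcp4-high cells against 4.33 in cells without Pcp4 in OVX_E2, 4.44 against 2.85 in OVX_E2_P4, 10.3 against 4.38 in OVX_E2_PBDE and 3.31 against 3.62 in OVX_E2_P4_PBDE, and their part in these ratios was not tested.

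**Figure D5:**
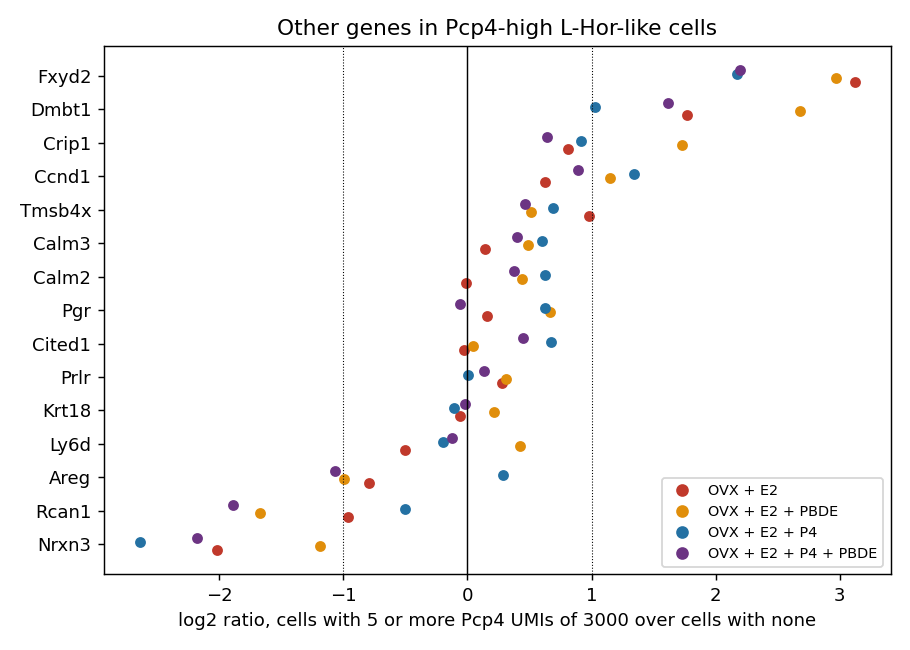
Log2 ratio of the level in Pcp4-high L-Hor-like cells to that in cells without a Pcp4 UMI (x axis) for named genes in the 4 libraries with estradiol (colours), with dotted lines at 2-fold. Fxyd2 and Dmbt1 lie beyond 2-fold higher and Nrxn3 beyond 2-fold lower in all 4 libraries, and Calm2, Calm3, Prlr, Cited1, Ly6d and Krt18 lie between the dotted lines.

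The calmodulin genes Calm2 and Calm3 did not show the difference of Pcp4 between OVX_E2 and OVX. The calmodulin gene Calm2 was 0.653 times its OVX level in OVX_E2 (0.586 to 0.730) and Calm3 0.965 times (0.750 to 1.26), both within 2-fold, where the median log2 ratio of all 7411 genes was -0.23. In Pcp4-high cells their mean log2 ratios to cells without Pcp4 were 0.36 and 0.41. Pcp4l1, Nrgn and Gap43, the other small IQ-motif proteins that bind calmodulin, had 1, 0 and 1 UMI in L-Hor-like cells of OVX and 0, 2 and 2 in OVX_E2, too few for a ratio.

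Lists of downstream enzymes and calcium handlers were compared in the same way. The number past 2-fold in each list was the same with TMM scaling. Of 15 genes for calmodulin-dependent kinases and the CaMKII inhibitors Camk2n1 and Camk2n2, 6, Camk2n1 among them, could be compared and none was past 2-fold (median log2 ratio -0.62), from Camk2g at 0.512 times (0.283 to 0.982) to Eef2k, the kinase of elongation factor 2, at 0.758 times (0.431 to 1.42). Of 12 genes for calcineurin and its regulators, 8 were compared and 1 was 2-fold or more higher (median 0.11), Rcan3, at 4.30-fold (1.14 to 36.4, from 2 UMIs in OVX), while Ppp3cb was the lowest at 0.702 times. Rcan1, the regulator of calcineurin induced by its activity and named after its values were seen, was 0.907 times its OVX level (0.718 to 1.16). In Pcp4-high cells it was below cells without Pcp4 in all 4 libraries, on 47 UMIs in all. The ratio was 0.509 in OVX_E2 (0.315 to 0.783) and 0.264 in OVX_E2_P4_PBDE (0.0959 to 0.584). It was 0.706 in OVX_E2_P4 (0.407 to 1.14) and 0.312 in OVX_E2_PBDE (0.0376 to 1.13), intervals that include 1. Ppp3ca, Ppp3cb and Ppp3r1, the other members compared there, had mean log2 ratios of -0.32, -0.27 and 0.27. Calcineurin activity was not tested.

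None of 12 pumps, channels and stores compared, of 20 listed, was past 2-fold (median -0.19), from Atp2b1, a plasma membrane calcium pump, at 0.608 times to Orai3, a store-operated channel subunit, at 1.41 times. Of 15 S100 and other EF-hand calcium binders, 8 were compared and 1 was past 2-fold (median 0.06), S100a14, at 9.04-fold (4.11 to 24.8), with sorcin (Sri) the lowest at 0.762 times. Among all genes, 2.44% were 2-fold or more higher and 6.42% lower. At these shares a short list would hold few such genes or none, so nothing is read from the counts in these lists.

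Pcp4 was also set beside known estrogen response genes in the same cells. Of 30 listed, 16 could be compared, 1 was 2-fold or more higher, 1 was 2-fold or more lower and 14 were between (median log2 ratio -0.07). Among all genes 2.44% were 2-fold or more higher and 6.42% lower, so nothing is read from these counts. Areg was the highest at 3.95-fold (3.51 to 4.45), from 380 to 1501 CPM, and Cxcl12, a chemokine, the lowest at 0.366 times (0.246 to 0.552). Pgr, the progesterone receptor, was at 1.19 times (0.958 to 1.49), and Greb1 had 0 UMIs in OVX and 13 in OVX_E2. Areg did not follow Pcp4 over the other libraries, at 1454 CPM in OVX_E2_P4, 2330 in OVX_E2_PBDE and 1736 in OVX_E2_P4_PBDE. Its highest level was in OVX_E2_PBDE, the library with estradiol where Pcp4 was lowest.

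Over sums of 38 combinations of class and library, the genes with the highest Pearson's r to Pcp4 on log2(CPM + 1) were 1110008P14Rik (0.929), Agps (0.873), Fgfr2 (0.872), Ggt1 (0.864) and Wfdc2 (0.851), of 12297 genes with at least 200 UMIs. The points share libraries, so no test was made. Agps, which makes ether lipid precursors, was at 184 CPM in L-Hor-like cells of OVX, 591 in OVX_E2, 389 in OVX_E2_P4, 307 in OVX_E2_PBDE and 428 in OVX_E2_P4_PBDE, the same order of libraries as Pcp4 over a narrower range. These levels were among the points behind r, so a like order is partly built in. With the libraries listed as for Agps, 1110008P14Rik was at 76.3, 168, 139, 140 and 200 CPM. It was highest in OVX_E2_P4_PBDE, unlike Pcp4. Ggt1, a gamma-glutamyltransferase of glutathione metabolism, was at 9.06, 80.7, 50.8, 69.8 and 53.8 CPM in that order. Fgfr2, a receptor of fibroblast growth factors, lay between 164 and 221 CPM in L-Hor-like cells of all 5 libraries, and Wfdc2, a secreted WAP-domain protein, between 1007 and 1631.

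The genes around Pcp4 had few counts. On the side before its start, Itgb2l (24.0 kb away) had no UMI in any library and Igsf5 (45.5 kb) had 3 UMIs in L-Hor-like cells of OVX and 30 in OVX_E2, a ratio of levels of 1.54 (0.478 to 7.87). On the side after its end, Dscam (65.0 kb) had 6 and 66, a ratio of levels of 1.69 (0.737 to 4.77), and both intervals include 1. AC154258.1, AC154538.2 and AC154538.1, the remaining neighbours in GENCODE M21, are not analysed here. That annotation also holds a longer model, named Igsf5, on the same strand that ends within the last exon of Pcp4, and 3′ reads of the pair could not be told apart by position there.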

How the data were processed

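The 5 libraries were made with the 10x Chromium 3′ kit, about 4000 cells being loaded, and the authors deposited raw UMI counts per gene and barcode from Cell Ranger 2.0.0 on mm10. Replicate libraries are lacking, so ratios carry counting intervals only. A barcode was kept if it had at least 500 genes, at least 1000 UMIs and at most 10% of UMIs from mitochondrial genes. Clustering was run library by library in Seurat 5.3.0 under R 4.3.3 (2000 variable genes, 104 genes including Pcp4 kept out, 10 principal components, 20 neighbours, resolution 0.3 in OVX and 0.5 elsewhere). Clusters were named by 71 marker genes, and the score limits for names (0.5 luminal, 0.25 lineage, 0.8 proliferating) were set after the clusters had been seen. Doublets were scored with Scrublet in scanpy 1.11.5 and left in, except in an alternative without the 20% highest scores. TMM factors are from edgeR 4.0.16. UMIs of a class were summed, and the rankings over genes use log2 ratios with 2 UMIs added per gene, split by the totals. The correlations and ratios were tried on simulated data with planted genes. The simulated ratios had no clumping of UMIs in few cells, so they do not bear on the intervals of Pcp4. Named genes were Pcp4, the 5 most and 3 least alike over cells (detected in at least 5% of thinned cells in each library with estradiol), the 5 most alike over classes, the 3 nearest on each side, and from the lists the members with extreme ratios beside Calm2, Calm3, Pcp4l1, Areg, Pgr and Greb1. An item of the lists is not reported here. The gene, its lists and these rules were chosen with earlier results of these data known.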

Additional observations from a re-analysis of the deposited data

How the results depend on the processing

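No paired analysis was possible because each group is 1 library. The ratio of OVX_E2 to OVX in L-Hor-like cells lay between 34.7 and 73.7 over the alternatives, and no ratio changed direction, but sizes moved and the cause was not tested. OVX_E2_P4 over OVX_E2 was 0.414 with barcodes of both luminal programs added, 0.440 with a marker gate on each barcode, 0.477 without the 20% highest Scrublet scores, 0.544 with a mitochondrial limit of 5%, 0.444 as the mean of per-cell CPM, 0.542 with TMM factors, 0.364 over all barcodes and 0.552 with proliferating luminal cells added. OVX_E2_PBDE over OVX_E2 was 0.271 as the mean of per-cell CPM, 0.241 with TMM factors, 0.185 over all barcodes, 0.278 with proliferating cells and 0.113 without the 10 richest cells. OVX_E2_P4_PBDE over OVX_E2_P4 was 1.32 with clusters at resolution 1.0, 1.86 with both luminal programs, 1.66 with the gate, 1.61 as the per-cell mean, 2.29 over all barcodes, 1.56 with proliferating cells and 1.85 without the 10 richest cells. OVX_E2_P4_PBDE over OVX_E2_PBDE was 3.83 with both luminal programs, 2.63 as the per-cell mean, 4.503 over all barcodes, 3.10 with proliferating cells, 3.78 without the richest cell and 8.12 without the 10 richest. Leaving out rich cells was chosen after seeing the data, as were the other draws of the thinning. Without thinning, the share of L-Hor-like cells with a Pcp4 UMI was 30.3% in OVX_E2, 28.7% in OVX_E2_P4, 11.3% in OVX_E2_PBDE and 27.9% in OVX_E2_P4_PBDE. Thinned to 5000 UMIs it was 21.6% in OVX_E2_P4 and 24.9% in OVX_E2_P4_PBDE, and the Fano factor was 37.0 in OVX_E2, 30.9 in OVX_E2_P4 and 48.7 in OVX_E2_PBDE. With no filter on low counts, 2105 genes were 2-fold or more higher in OVX_E2 than in OVX, 1333 lower in OVX_E2_P4 and 1571 lower in OVX_E2_PBDE than in OVX_E2, and 1278 and 1595 higher in OVX_E2_P4_PBDE than in OVX_E2_P4 and OVX_E2_PBDE. With TMM factors the first 3 of these comparisons gave 387, 37 and 47 genes. Fxyd2 stayed first in likeness over cells without thinning, by rank correlation and without the highest Scrublet scores. In OVX 92 L-Hor-like cells gave 7 Pcp4 UMIs, which limits every ratio to it.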
